A study of Mus musculus with 15 samples.

Results

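The thymus of NOD.LCMV mice was compared with that of NOD.Ln82-LCMV mice after injection of a control peptide, gene by gene. The comparison rests on the 3 arrays labelled NOD.LCMV with the Db peptide and the 4 labelled NOD.Ln82-LCMV with the Db peptide, which are 7 of the 15 arrays of the series, each from 1 mouse. All animals were females aged 5 weeks that had received 0.5 µg of a peptide intravenously, and total RNA was taken from the whole thymus 2 h later. The remaining 8 mice, 3 NOD.LCMV and 5 NOD.Ln82-LCMV, had received gp33 in place of the control peptide and entered only where stated. Each of 19938 genes was represented by the probe set with the highest mean over all arrays, among those with a single gene symbol. The labels name LCMV in both strains but describe neither a transgene with its promoter nor the interval that the name Ln82 stands for.

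NOD mice develop autoimmune diabetes spontaneously, and the series title places the work on Idd7, a diabetes locus of chromosome 7, and on how CD8 T cells are deleted as they develop. In the thymus, a developing T cell whose receptor binds a self-peptide strongly is removed, whereas a weaker signal lets it mature. gp33 is a peptide of lymphocytic choriomeningitis virus that the class I molecule Db presents, and the control peptide binds Db as well, so the control-peptide mice show the 2 strains without the gp33 signal. Nfkbid, the gene in the title, encodes an atypical nuclear inhibitor of NF-kB.

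Markers of the labelled tissue were high on all 7 arrays. The log2 level of Rag1, which cuts receptor genes in double-positive thymocytes, lay between 11.41 and 11.96, that of Cd8a between 12.43 and 12.67, that of Cd3e between 12.87 and 13.01, and that of Psmb11, a proteasome subunit of cortical epithelium, between 8.37 and 8.66. Array medians ran from 7.59 to 7.62 in NOD.Ln82-LCMV and from 7.66 to 7.67 in NOD.LCMV, so they separated by strain. A processing difference that followed strain could not be told apart from strain. Within a group, any pair of arrays had a correlation of at least 0.992 over the probe sets. The number of arrays limits the precision. Because whole tissue was measured, fewer cells of a type and less RNA per cell cannot be told apart.

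One array stood apart from its group in a small set of the 19938 genes, but not over all genes. Over all genes, NOD.Ln82-LCMV control replicate 1 differed from the rest of its group with an SD of 0.147. The SD was 0.142, 0.0939 and 0.161 for replicates 2 to 4. For single genes, distance was judged by the gap to the nearest array relative to the range, and genes with a small range were left out. NOD.Ln82-LCMV control replicate 1 was the highest of its 4 arrays, far from the other 3, in 29 genes and the lowest in 16, against 4 and 0, 1 and 0, and 1 and 4 genes for replicates 2, 3 and 4. Its level of Cd226, an adhesion receptor that costimulates T cells, was 10.10, beside 8.48, 8.64 and 8.41 in replicates 2 to 4 and 10.13, 10.05 and 10.18 in the NOD.LCMV mice. The T-cell receptor segment Trbv1, singled out after its values were seen, stood at 10 on that array, at 12.66, 12.54 and 12.54 on the other NOD.Ln82-LCMV arrays and at 9.99, 9.72 and 8.50 in NOD.LCMV. In other genes the same array stayed with its own strain: Uprt was 10.58 there, 10.65, 10.59 and 10.41 in replicates 2 to 4, and 9.71, 8.98 and 8.58 in NOD.LCMV. The array was kept in the comparison, and several counts are also given without it. Why it differed was not tested.

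With the control peptide, 2057 of 19938 genes (10.3%) differed between the strains at an adjusted p under 0.05 in limma with Benjamini-Hochberg adjustment. In NOD.LCMV, 952 genes (4.77%) were higher and 1105 (5.54%) were lower. The differences were mostly small: the median size was 0.25 on the log2 scale among the higher genes and 0.29 among the lower, and 725 and 672 of them were under 1.25-fold. A difference of at least 1.5-fold was reached by 31 higher genes (0.155% of all) and 79 lower genes (0.396%), and one of at least 2-fold by 3 and 13. The median difference over all genes was 0.01. The groups did not overlap in 872 of the higher and 1038 of the lower genes, while among all genes 19.6% had no overlap. Without NOD.Ln82-LCMV control replicate 1, the counts were 1350 higher (6.77%) and 1371 lower (6.88%), of which 913 and 1044 were also called with all arrays. When each of the 15 arrays was left out in turn, 350 higher genes (1.76%) and 533 lower genes (2.67%) were called every time. The lowest counts were 463 higher and 586 lower, without NOD.LCMV control replicate 3, and the counts also moved by over 1.5 times without NOD.Ln82-LCMV control replicate 3 (487 and 701) and, for higher genes, without NOD.LCMV control replicate 2 (529). The genes below are described as held where they belong to those.

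Nfkbid did not pass the test with the control peptide. Its log2 levels were 9.08, 9.06, 9.33 and 9.27 in the NOD.Ln82-LCMV mice and 9.33, 9.27 and 9.40 in the NOD.LCMV mice. The ranges overlapped, and the difference was 0.15 ± 0.105 (SE), with an adjusted p of 0.477 in limma and p = 0.257 in the exact two-sided permutation test over mice, whose smallest value is 0.0286. The 95% interval of the ratio ran from 0.948 to 1.30. With gp33 the difference was 1.86, and it differed from that with the control peptide by 1.71 (adjusted p = 2.16e-06 in limma).

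The 12 genes with the largest rise in NOD.LCMV included transcription regulators and surface molecules of T cells. Bach2, a repressor that restrains effector differentiation, was at 9.58, 8.73, 8.83 and 8.72 in the NOD.Ln82-LCMV mice and at 9.88, 9.85 and 9.76 in NOD.LCMV. The groups did not overlap, and replicate 1 of NOD.Ln82-LCMV was the nearest to NOD.LCMV. The difference was 0.87 ± 0.165 (SE; 1.82-fold, adjusted p = 0.00395 in limma) with all arrays and 1.07 without that replicate, and the call was held. Tbrg3 was at 9.95, 9.63, 9.51 and 9.40 against 10.43, 10.46 and 10.47, again without overlap, and rose by 0.83 ± 0.0937 (adjusted p = 0.000138 in limma). The membrane protein gene Adam11 (0.87), the zinc finger gene Zfp831 (0.82), Xkrx (0.80), Phxr4 (0.75) and Pced1b (0.74) were higher as well, and each of these calls was held.

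For 5 others of the 12, the call depended on the arrays used. Cd226 had the largest difference, 1.21 ± 0.294 (2.32-fold, adjusted p = 0.0156 in limma), which became 1.61 without NOD.Ln82-LCMV control replicate 1. Replicate 1 lay inside the NOD.LCMV range, so the groups overlapped, and the call was lost without NOD.Ln82-LCMV control replicate 3 or NOD.LCMV control replicate 3. Tdrp (1.00), Amigo2 (0.78), Als2cl (0.76) and Itgae (0.71), the last encoding the αE integrin chain CD103 of CD8 lineage thymocytes, lost the call in 6, 7, 4 and 3 of the 15 leave-one-out fits. A second, dim probe set of Als2cl differed by -0.08 ± 0.0746. Itgae stood at 9.40 on replicate 1, at 8.71, 8.62 and 8.75 on the other NOD.Ln82-LCMV arrays and at 9.63, 9.58 and 9.53 in NOD.LCMV.

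**Figure D1:**
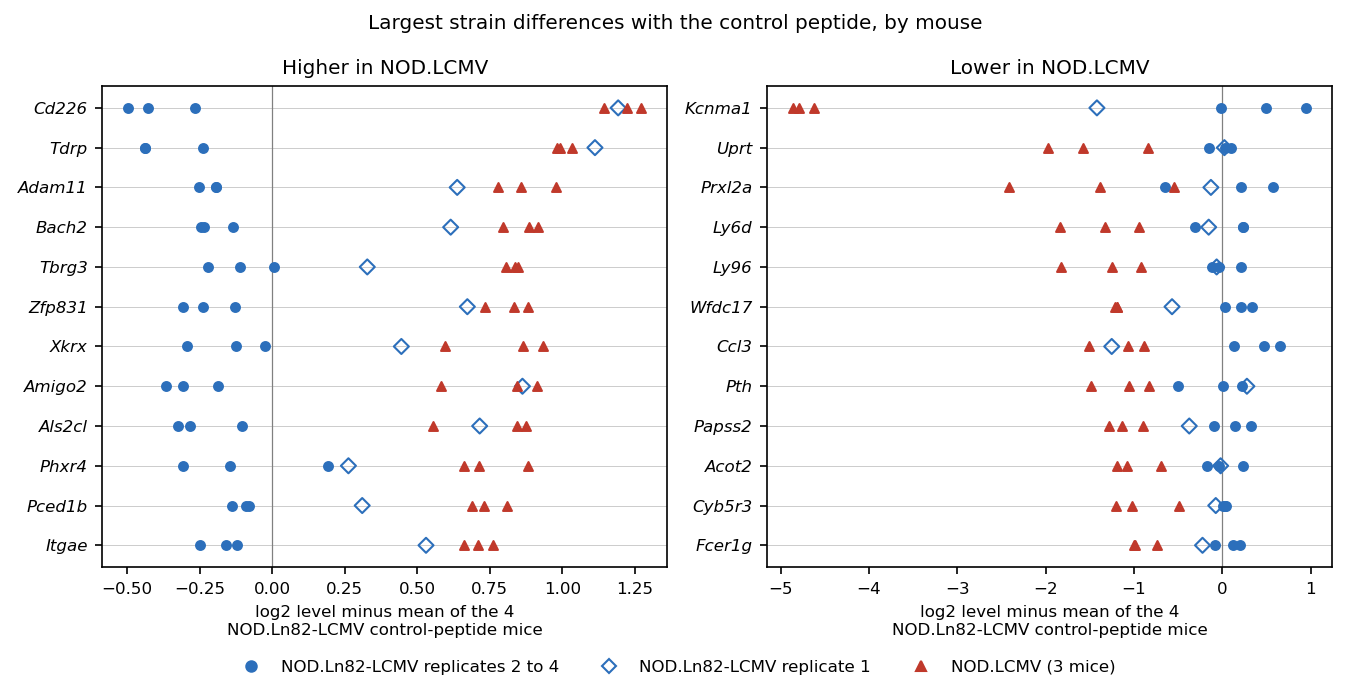
Log2 level of the 24 genes with the largest differences (12 in each direction) on each of the 7 control-peptide arrays, minus the mean of the 4 NOD.Ln82-LCMV arrays; each symbol is 1 mouse, and the axes of the panels differ. The open diamond, NOD.Ln82-LCMV control replicate 1, lies among or near the NOD.LCMV mice for Cd226 and Tdrp and with its own strain for Uprt and Ly96.

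The largest fall belonged to a probe set annotated to Kcnma1, the pore subunit of a calcium-activated potassium channel. Its levels were 10.14, 12.51, 12.05 and 11.54 in NOD.Ln82-LCMV and 6.94, 6.70 and 6.77 in NOD.LCMV. The groups were far apart, with replicate 1 the lowest of its strain, and the difference was -4.76 ± 0.381 (27.0-fold, adjusted p = 2.38e-05 in limma). The platform table lists 4 accessions and 0 RefSeq transcripts for this probe set. The other Kcnma1 probe set, with 17 RefSeq transcripts and 0 accessions in common, differed by only -0.08 ± 0.0634, so the difference cannot be assigned to the channel transcript.

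Ly96 and Fcer1g were among the other 11. Ly96, which encodes the MD-2 partner of the endotoxin receptor TLR4, was at 8.66, 8.94, 8.69 and 8.61 against 7.80, 7.47 and 6.90 in NOD.LCMV. It fell by 1.33 ± 0.179 on the log2 scale (2.52-fold, adjusted p = 0.000388 in limma). Fcer1g, the signalling chain shared by several Fc and natural killer receptors, was at 9.55, 9.69, 9.89 and 9.97 against 9.04, 8.79 and 8.77. It fell by 0.91 ± 0.135 on the log2 scale (adjusted p = 0.000838 in limma). The groups did not overlap in either gene. Wfdc17 (-1.20), Ly6d (-1.37), Uprt (-1.47), the sulfate-activating enzyme gene Papss2 (-1.11), the thioesterase gene Acot2 (-0.99) and the reductase gene Cyb5r3 (-0.91) were lower too, and these calls were held.

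Uprt was measured by a second probe set, which differed by -0.99 ± 0.126, the same direction as the first. Pth, the parathyroid hormone gene, fell by 1.13 on the log2 scale (adjusted p = 0.0023 in limma, held), but it was dim, with levels between 5.42 and 6.07 in NOD.LCMV and between 6.40 and 7.18 in NOD.Ln82-LCMV, where genes with a mean below 6.92 are classed as dim. Prxl2a (-1.45) ranged from 7.79 to 9.65 among the 3 NOD.LCMV mice and overlapped the other strain, and its call was lost in 4 of the 15 leave-one-out fits. Ccl3, a chemokine of activated T and myeloid cells, was at 7, 8.38, 8.91 and 8.72 against 6.74, 7.37 and 7.18. With replicate 1 inside the NOD.LCMV range, its difference was -1.16 ± 0.343 (adjusted p = 0.0442 in limma), and the call was lost in 13 of the 15 fits.

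MicroRNA genes were called only in 1 direction. Of the 300 measured, 24 were higher in NOD.LCMV and 0 were lower, against 4.77% and 5.54% of all genes. In limma without adjustment, 51 had p under 0.05 on the higher side and 0 on the lower. Of the 300, 201 were dim, and the count fell to 14 without NOD.LCMV control replicate 2 and to 15 without NOD.Ln82-LCMV control replicate 3. Calls in 1 direction were not particular to microRNA genes. Of 1196 olfactory and vomeronasal receptor genes, of which 1151 were dim, 7 were higher and 0 lower. Without adjustment, 46 of these were higher and 5 lower at a p under 0.05 in limma. The microRNA class was chosen after its values were seen. The genes named here share mature products or seeds, which are shown because the array measured the gene and not the mature arm. In these RefSeq sequences (GRCm38.p6, 5′ to 3′), capitals mark the seed, bases 2 to 8.
miR-181b-5p, from Mir181b-1 (chr1:137966650-137966673, plus strand) and Mir181b-2 (chr2:38853845-38853868, plus strand): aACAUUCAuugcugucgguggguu
miR-15a-5p, from Mir15a (chr14:61632075-61632096, minus strand): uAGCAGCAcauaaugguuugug
miR-15b-5p, from Mir15b (chr3:69009775-69009796, plus strand): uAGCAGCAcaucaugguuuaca
miR-16-5p, from Mir16-1 (chr14:61631936-61631957, minus strand) and Mir16-2 (chr3:69009918-69009939, plus strand): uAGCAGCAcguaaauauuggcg

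Both miR-181b genes were higher in NOD.LCMV. The miR-181 family is abundant in double-positive thymocytes, where it raises T-cell receptor sensitivity. Other members of this family were not looked up. Mir181b-1 was at 10.66, 10.36, 10.23 and 10.44 in NOD.Ln82-LCMV and at 11.20, 11.35 and 11.06 in NOD.LCMV, without overlap, and rose by 0.78 ± 0.15 (1.72-fold, adjusted p = 0.00405 in limma). Mir181b-2 was at 8.13, 7.59, 7.12 and 7.28 against 8.30, 8.44 and 8.33, and rose by 0.83 ± 0.185 (adjusted p = 0.00974). Both calls were held, although replicate 1 of NOD.Ln82-LCMV was nearest to NOD.LCMV in each.

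Mir15a, Mir15b, Mir16-1 and Mir16-2, the called microRNA genes with the miR-15 and miR-16 seed, were higher as well. Other genes with this seed were not looked up. This seed family is known to restrain cyclins and BCL2. Mir16-2 was at 5.72, 5.69, 5.51 and 5.51 against 6.29, 6.47 and 6.23, which is dim but without overlap, and rose by 0.72 ± 0.0722 (adjusted p = 6.15e-05 in limma). Mir15a was at 10.51, 10.43, 10.43 and 10.36 against 10.90, 10.87 and 10.91, and rose by 0.46 ± 0.0686 (adjusted p = 0.000852). Mir15b (0.86) and Mir16-1 (0.30) were called with all arrays, but they were not held, whereas Mir15a and Mir16-2 were. Mir15b and Mir16-2 lie within 1 cluster on chromosome 3, and Mir15a and Mir16-1 within another on chromosome 14, so the members of each pair may not be independent. Over the class, 10 of the 24 calls were held.

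List counts are to be read against the 4.77% of all genes that were higher and the 5.54% that were lower. Of 23 measured members of the proximal T-cell receptor signalling list, 5 were higher and 0 lower, with 6 and 1 at an unadjusted p under 0.05 in limma: the kinase gene Fyn (0.40 ± 0.0833), the phospholipase gene Plcg1 (0.30 ± 0.0553), the ubiquitin ligase gene Cbl (0.24 ± 0.0466), the phosphatase gene Ptprc (0.23 ± 0.0523) and Ubash3a (0.19 ± 0.0559). The median of the list was 0.09, beside 0.01 for all genes, and without NOD.LCMV control replicate 3, 3 were higher. A single member was called lower without NOD.Ln82-LCMV control replicate 2. Fyn was at 11.32, 10.90, 10.96 and 10.89 in NOD.Ln82-LCMV and at 11.38, 11.38 and 11.49 in NOD.LCMV, so that the groups did not overlap but replicate 1 was next to NOD.LCMV. Fyn, Plcg1 and Cbl were held. No coreceptor or CD3 gene of 13 was called by limma, with 1 on each side at an unadjusted p under 0.05, and 1 was higher without replicate 1.

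Genes that receptor signals switch on did not form a group. Of 24, Egr2 was higher (0.40 ± 0.113) and Rgs1 lower (-0.61 ± 0.143), and neither was held. Nr4a1, an early marker of receptor signal strength, was at 10.29, 11.07, 11.21 and 11.25 against 10.41, 10.53 and 10.39, a difference of -0.51 with an adjusted p of 0.109 in limma. Without NOD.Ln82-LCMV control replicate 1 its adjusted p was 0.00149, and the list had 3 higher and 5 lower. Leaving out NOD.LCMV control replicate 2 or 3 gave 0 higher and 0 lower. Of 17 NF-kB subunits and inhibitors, 1 was called: Ikbke, an inhibitor-directed kinase, rose by 0.46 ± 0.0953 (adjusted p = 0.00621 in limma, held). Nfkbib was next, at -0.15 with an adjusted p of 0.114.

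Genes of mature single-positive thymocytes were higher in 5 of 17 cases and lower in 0, beside 4.77% and 5.54% of all genes. With replicate 1 of NOD.Ln82-LCMV left out, 7 were higher and 1 lower. Runx3, which directs the CD8 lineage, was at 10.03, 9.58, 9.60 and 9.53 against 10.20, 10.16 and 10.06, and rose by 0.46 ± 0.101 (adjusted p = 0.00919 in limma). Foxp1, which keeps mature T cells quiescent, rose by 0.39 ± 0.0804, and the exit receptor gene S1pr1 by 0.29 ± 0.0677. Foxo1 and Itgae were the other members called, and Runx3 and Foxp1 were held. The list mean was 10.06 on NOD.Ln82-LCMV control replicate 1, 9.86 to 9.89 on replicates 2 to 4 and 10.04 to 10.11 in NOD.LCMV, so that replicate 1 lay within the NOD.LCMV range. Without NOD.LCMV control replicate 1, 2 of the list were higher, and without NOD.Ln82-LCMV or NOD.LCMV control replicate 3, 3.

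Earlier stages showed few calls. Of 19 double-positive genes, only the chromatin organizer Satb1 was called (0.29 ± 0.0636, held), against 3 higher and 1 lower without NOD.Ln82-LCMV control replicate 1, and of 20 progenitor genes, Bcl11b, the regulator of T-lineage commitment, and Runx1 were higher, by 0.48 ± 0.0963 and 0.31 ± 0.0569, both held. Bcl11b was at 11.67, 11.33, 11.42 and 11.44 against 11.92, 11.99 and 11.92, without overlap. Ptcra, the pre-receptor chain, was at 9.05, 9.41, 9.05 and 9.55 against 8.81, 8.97 and 8.34, but its difference of -0.56 had an adjusted p of 0.0981 in limma. In the GIMAP family of lymphocyte survival GTPases, 1 of 8 was called, Gimap6 (0.38 ± 0.0961, not held), while the family median was 0.32. The number higher was 4 without NOD.Ln82-LCMV control replicate 1, and without any 1 of its other replicates or NOD.LCMV control replicate 2 or 3, 0 were. The 8 genes' mean was 9.28 on replicate 1 and 8.84 to 8.93 on the other NOD.Ln82-LCMV arrays, against 9.16 to 9.21 in NOD.LCMV.

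Genes of the cell cycle were lower in 8 of 26 cases, beside 5.54% of all genes, and higher in 0. At an unadjusted p under 0.05 in limma, 10 were lower and 3 higher. Ccna2, the S-phase and G2 cyclin, was at 12.44, 12.48, 12.44 and 12.42 against 12.22, 12.13 and 12.05, and fell by 0.31 ± 0.0473 on the log2 scale (1.24-fold, adjusted p = 0.000951 in limma). The thymidylate synthase gene Tyms was at 11.06, 11.21, 11.19 and 11.25 against 10.76, 10.86 and 10.77, and fell by 0.38 ± 0.0611 (adjusted p = 0.00135). The groups did not overlap in either gene. The spindle checkpoint gene Bub1 (-0.28) and the mitotic cyclin gene Ccnb2 (-0.20) were lower too, and these 4 calls were held, whereas those of Ccne2, Mcm3, Mcm5 and Aurka were not. The list mean was 11.24 on replicate 1, 11.29 to 11.32 on the other 3 arrays of its strain and 11.16 to 11.22 in NOD.LCMV, so that replicate 1 lay between the groups and nearer to NOD.LCMV. Without it, 8 were lower and 2 higher, and without NOD.LCMV control replicate 3, 4 were lower and 1 higher. Without NOD.Ln82-LCMV control replicate 3 or NOD.LCMV control replicate 1 or 2, 5 were lower.

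Subunits of the respiratory chain and of ATP synthase made up the clearest class among the lower genes. The class was chosen after its values were seen, by gene symbol. Of 78 measured, 37 were lower and 0 higher, with a median of -0.21, against 5.54% of all genes lower, and 26 calls were held. At an unadjusted p under 0.05 in limma, 51 were lower and 1 higher. Atp5g1, a membrane subunit of ATP synthase, was at 11.87, 11.93, 11.96 and 11.93 in NOD.Ln82-LCMV and at 11.39, 11.23 and 11.03 in NOD.LCMV. It fell by 0.71 ± 0.0661 on the log2 scale (adjusted p = 4.91e-05 in limma). Cox8a, a subunit of cytochrome oxidase, fell by 0.56 ± 0.0548 (adjusted p = 5.69e-05), and Ndufb9, of complex I, by 0.69 ± 0.0998 (adjusted p = 0.00071). The class mean separated the groups, from 10.53 to 10.69 against 10.28 to 10.46. Not every subunit moved: Atp5b, the catalytic chain, differed by 0.01 ± 0.0414 (adjusted p = 0.937). The counts of lower subunits ranged from 26, without NOD.LCMV control replicate 3, to 40 in the leave-one-out fits.

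Proteasome and ribosomal protein genes showed the same direction with smaller counts. Of 39 proteasome subunits, 12 were lower and 0 higher (median -0.13), among them the immunoproteasome gene Psmb10 (-0.39 ± 0.0496, held), which was at 10.59, 10.62, 10.69 and 10.58 against 10.22, 10.27 and 10.20. Without NOD.LCMV control replicate 3, 6 were lower, and without NOD.Ln82-LCMV control replicate 3, 7. Of 57 cytosolic ribosomal protein genes, 16 were lower and 1 higher, led by Rpl29 (-0.34 ± 0.0371), and 10 were lower without NOD.LCMV control replicate 3. Ribosomal protein genes have many near-identical processed copies, which their probe sets may also read.

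**Figure D2:**
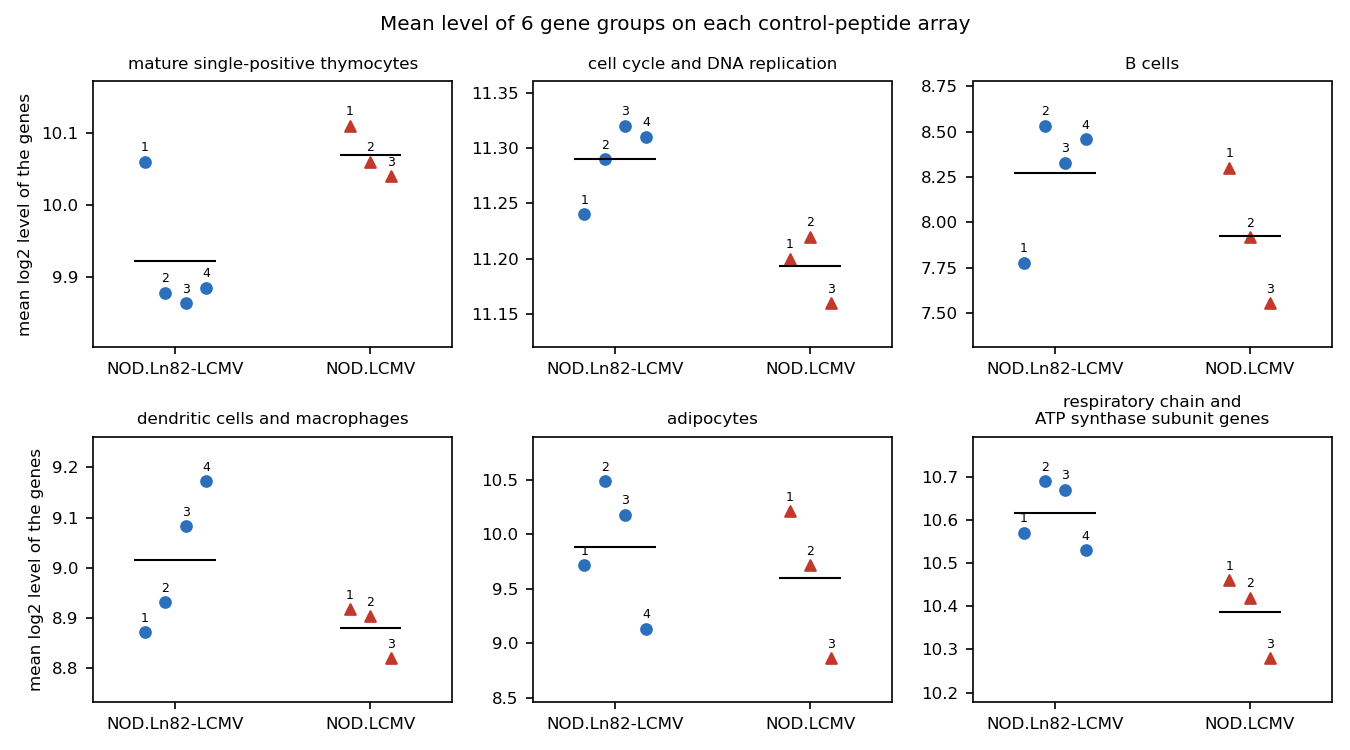
Mean log2 level of 6 gene groups on each control-peptide array (circles NOD.Ln82-LCMV, triangles NOD.LCMV, with the replicate number; lines are group means; the axes differ and do not start at 0). The respiratory chain means separate the strains, the adipocyte means range widely within both, and replicate 1 of NOD.Ln82-LCMV sits with NOD.LCMV for mature single-positive genes and low for B cells.

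Called genes also differed in gene span, the length of the gene from start to end in the mouse assembly. The median span was 44.4 kb among the higher genes, 11.1 kb among the lower and 17.7 kb among all. Among genes of 100 to 300 kb, 11.3% were higher and 1.42% lower, whereas among genes of 3 to 10 kb, 2.44% were higher and 8.80% lower. An array-wide trend on span lay higher on the NOD.LCMV arrays, but the ranges of the strains nearly met. The mean deviation of long minus short genes was -0.0638 to 0.015 on the NOD.Ln82-LCMV arrays and 0.0162 to 0.0676 on the NOD.LCMV arrays. With that trend taken out of each array, an alternative added after the data were seen, 35 respiratory chain and ATP synthase subunits were called lower and 18 microRNA genes higher. The median of the microRNA genes went from 0.05 to -0.0025 and that of the subunits from -0.214 to -0.213. The part of this trend in single calls was not tested otherwise.

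**Figure D3:**
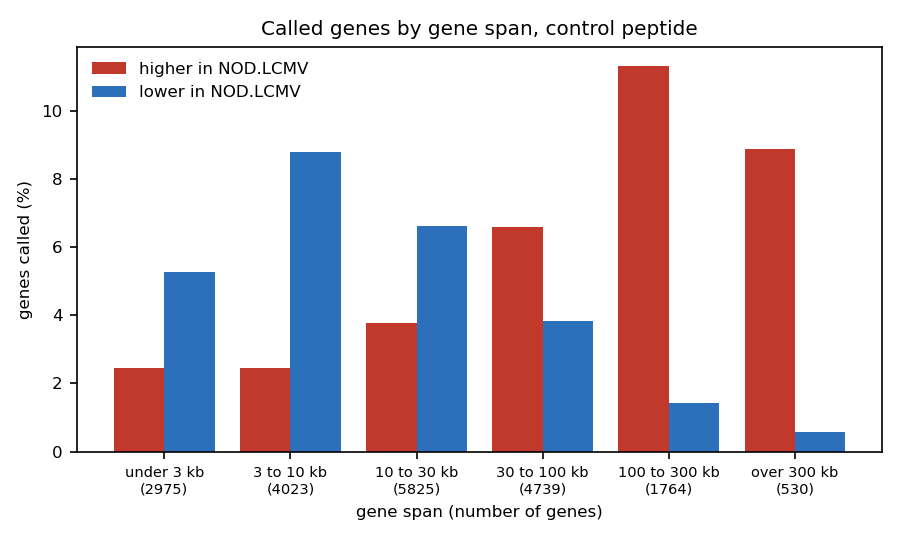
Percentage of genes called higher (red) and lower (blue) in NOD.LCMV with the control peptide, in 6 classes of gene span, with the number of genes in each class below its bars. The share called higher rises from 2.45% under 3 kb to 11.3% at 100 to 300 kb, and the share called lower falls from 8.80% at 3 to 10 kb to 0.566% over 300 kb.

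The share of calls differed among the lists of non-thymocyte cells, and some of these lists had low medians, -0.28 for adipocytes, -0.26 for B cells and -0.24 for lymph node. Among dendritic cell and macrophage genes 3 of 23 were lower (5.54% of all genes) and 0 higher, namely the complement genes C1qa (-0.50 ± 0.117) and C1qc (-0.49 ± 0.116) and the chemokine gene Ccl22 (-0.35 ± 0.105), and none was held. At an unadjusted p under 0.05 in limma, 8 of the 23 were lower and 0 higher. The count of lower calls was 6 without NOD.Ln82-LCMV control replicate 1 and 0 without NOD.LCMV control replicate 3. Their list mean was 8.82 to 8.92 in NOD.LCMV and 8.87 to 9.17 in NOD.Ln82-LCMV, with replicate 1 the lowest. Natural killer and gamma delta genes gave 3 lower of 17, the granzyme gene Gzma (-0.47) and the adaptor genes Fcer1g and Tyrobp (-0.37), of which the adaptors were held. Without adjustment, 6 of these 17 were lower and 3 higher at a p under 0.05 in limma. Leaving out replicate 1 of NOD.Ln82-LCMV gave 6 lower and 1 higher calls. Both adaptors are shared with myeloid cells. The innate receptor list gave Clec7a (-0.72, not held) as the only call of 13.

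B cells were represented by Cd79b, the only call of 14, at 9.84, 10.44, 10.27 and 10.62 against 9.85, 9.67 and 9.20. Its difference was -0.72 ± 0.186 (adjusted p = 0.0222 in limma), the groups overlapped at replicate 1, and the call was not held. Without that replicate 3 B-cell genes were lower and the list median went from -0.26 to -0.40. The list mean was 7.78 on replicate 1, 8.33 to 8.53 on the other NOD.Ln82-LCMV arrays and 7.56 to 8.30 in NOD.LCMV. Adipocyte genes varied within both strains, with list means from 9.14 to 10.49 in NOD.Ln82-LCMV and from 8.86 to 10.21 in NOD.LCMV, and 0 of 19 were called. The adipokine gene Retn, at 9.86, 10.44, 10.23 and 9.30 against 9.77, 9.20 and 8.29, followed the list. Lymph node genes (0 of 7), skeletal muscle (0 of 15) and fibroblast genes (0 of 16) gave no call in limma; at an unadjusted p under 0.05, 1 adipocyte and 1 lymph node gene were lower, 1 fibroblast gene was higher and 0 muscle genes passed. How far such cells contributed to the other differences was not tested.

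Among the rest of the stroma, endothelium gave 2 higher of 15, the coreceptor gene Eng (0.51 ± 0.112, held) and Pecam1 (0.22 ± 0.0515, not held). Eng was at 9.78, 9.26, 9.28 and 9.17 against 9.93, 9.93 and 9.79, without overlap and with replicate 1 close to NOD.LCMV. Thymic epithelium gave 1 lower of 21, Krt14 (-0.36, not held), and the tissue-restricted genes of the medulla 1 lower of 14, the dim Pth already described. Of 20 granulocyte and mast cell genes, the mast cell protease gene Cpa3 was lower (-0.51 ± 0.127, not held). Ltf (0.42, held) and Camp (0.16, not held) were higher. Ltf was dim. Red cell genes gave 1 lower of 6, Alas2 (-0.73, not held).

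Calls among antigen presentation and interferon genes are to be read beside the 4.77% of all genes that were higher and the 5.54% that were lower. At an unadjusted p under 0.05 in limma, 3 class I genes were higher and 3 lower. By the same measure 0 class II genes were higher and 4 lower, and 0 interferon-stimulated genes were higher and 6 lower. Of 15 class I genes, Psmb10 and Psmb9 (-0.25) were lower and the class I transactivator gene Nlrc5 was higher (0.29 ± 0.0841, not held). Nlrc5 has 19 probe sets, and the other 18 differed by 0.0033 to 0.72, all with a positive sign. Of 11 class II genes, Ifi30, a lysosomal thiol reductase gene, was at 10.79, 11.19, 11.36 and 11.48 against 10.61, 10.70 and 10.46 and fell by 0.61 ± 0.131 (adjusted p = 0.00745 in limma, held), and H2-DMa was lower too (-0.22, adjusted p = 0.038). Of 22 interferon-stimulated genes, Bst2 was lower (-0.45 ± 0.106, not held), and of 9 interferon-induced GTPases none was called (1 on each side at an unadjusted p under 0.05). Without NOD.Ln82-LCMV control replicate 1, 6 interferon-stimulated genes and 2 GTPases were lower. Leaving out NOD.LCMV control replicate 3 gave 0 lower interferon-stimulated genes.

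Of 14 glucocorticoid targets, 3 were lower, beside 5.54% of all genes: the metallothionein genes Mt2 (-0.73 ± 0.152, held) and Mt1 (-0.46 ± 0.122) and the growth inhibitor gene Ddit4 (-0.48 ± 0.135). Mt2 was at 10.95, 11.73, 11.36 and 11.55 against 10.81, 10.68 and 10.52, without overlap. Of 11 heat shock genes, Hspe1 (-0.39 ± 0.078, held), Bag3 (-0.37) and Dnajb1 (-0.30) were lower. Of 21 apoptosis regulators, whose median was -0.02, 6 were lower and 1 higher at an unadjusted p under 0.05, and 3 were called lower, the pore-former gene Bak1 (-0.38 ± 0.0468, held), the caspase gene Casp8 (-0.31 ± 0.0602, held) and Bid (-0.34 ± 0.0831). Bak1 was at 10.18, 10.19, 10.21 and 10.19 against 9.88, 9.84 and 9.73, without overlap. Without NOD.LCMV control replicate 3, 1 glucocorticoid target, 1 heat shock gene and 2 apoptosis regulators were lower. The glucocorticoid count was 1 as well without NOD.Ln82-LCMV control replicate 2 or 4 or NOD.LCMV control replicate 2, and the heat shock count without NOD.Ln82-LCMV control replicate 3. Hspe1 has near-identical processed copies that its probe set may read. Of 16 clock genes, the repressor gene Nr1d1 was lower (-0.66 ± 0.138, held), and of 16 sterol and fatty acid genes, Hmgcs1 was higher (0.41 ± 0.116, not held).

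Of 27 genes that have been linked to type 1 diabetes risk, 5 were higher and 2 lower, against 7 and 2 without NOD.Ln82-LCMV control replicate 1. Those higher were Bach2, Cd226, Vav3 (0.37), the cytokine receptor kinase gene Tyk2 (0.24 ± 0.0656) and Ubash3a, and those lower were the costimulatory receptor gene Tnfrsf9 (-0.71 ± 0.211) and Rgs1. Bach2 was the only one held, and without NOD.LCMV control replicate 3 it was the only one called. Tnfrsf9 was at 8.30, 9.34, 9.37 and 9.20 against 8.50, 8.34 and 8.18, so that only replicate 1 of NOD.Ln82-LCMV overlapped NOD.LCMV. Tnfrsf9 and Tnfrsf18 (-0.41 ± 0.105) were also the 2 lower members of the list of 12 regulatory T-cell genes, of which none was held and 4 were lower without replicate 1. Without any 1 of the other control-peptide arrays, 0 of that list were lower.

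**Figure D4:**
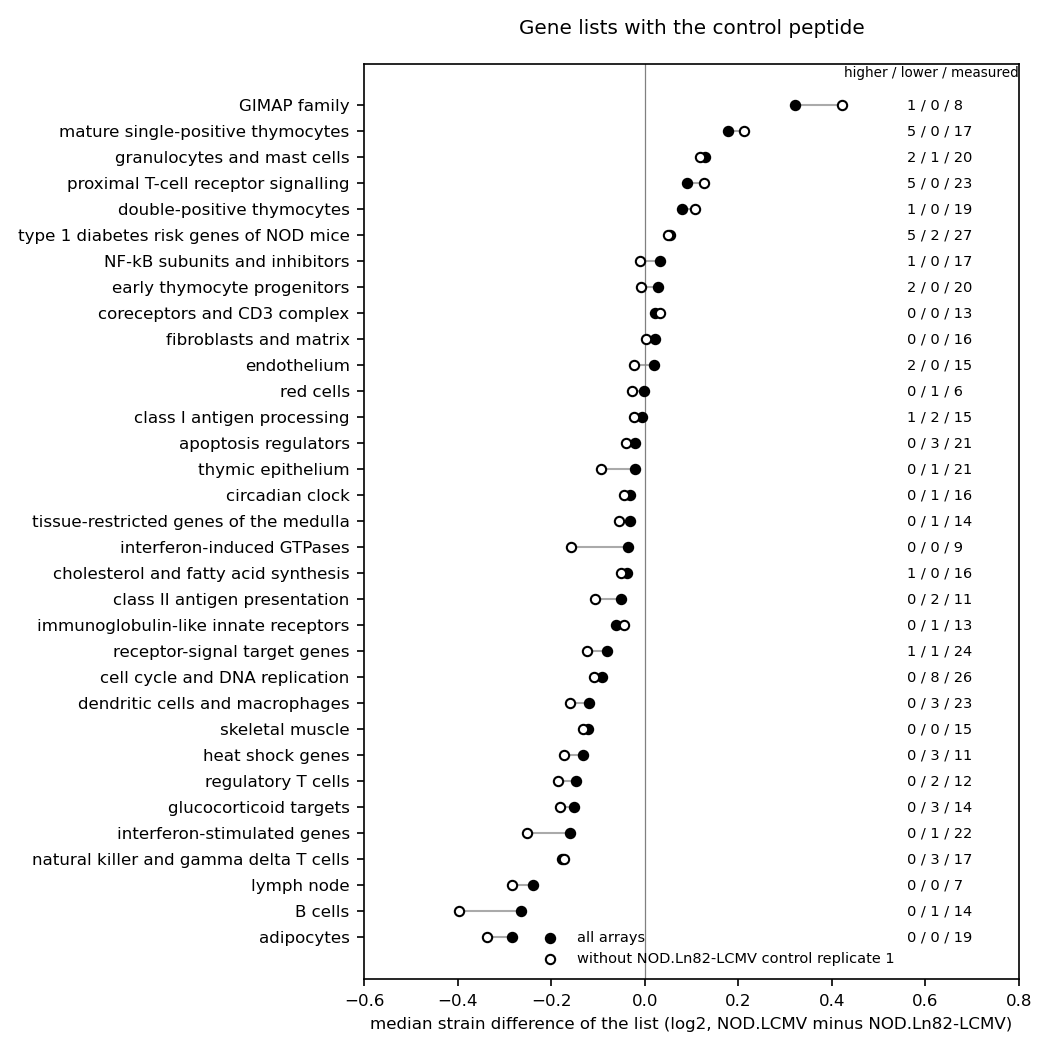
Median strain difference of each of 33 gene lists (log2, NOD.LCMV minus NOD.Ln82-LCMV) with all arrays (filled) and without NOD.Ln82-LCMV control replicate 1 (open), with the counts of members called higher, called lower and measured at the right. Mature single-positive and GIMAP genes lie at the top, and B-cell and adipocyte genes at the bottom.

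Called genes were spread over the genome. Chromosome 7, which holds Nfkbid, had 9.86% of its 1734 genes called, against 10.3% of all genes, and chromosomes ranged from 8.01% on 6 to 13.1% on 15. In windows of 50 neighbouring measured genes, the median was 5 calls, and the window with most, 15, ran from Olfr521 to Rhog on chromosome 7. Nfkbid lay in the window that starts at Zfp566 and ends at Mag, with 12 calls and a shared rank of 5 among 385. The nearest called genes on one side of Nfkbid were Tyrobp, Sdhaf1, Alkbh6, Polr2i and Yif1b, all lower, and on the other side Psenen, which was lower, and U2af1l4, Igflr1, Kmt2b and Upk1a, which were higher.

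Igflr1 and Polr2i differed most among these neighbours. Igflr1, a receptor of the tumour necrosis factor type on T cells, was at 9.07, 8.63, 8.66 and 8.81 against 9.36, 9.44 and 9.37, and rose by 0.60 ± 0.0882 (1.51-fold, adjusted p = 0.000821 in limma, held). Polr2i, a subunit of RNA polymerase II, was at 8.39, 8.51, 8.48 and 8.44 against 8.02, 8.12 and 8.02, and fell by 0.40 ± 0.0539 on the log2 scale (adjusted p = 0.000389, held). The other 8 differed by 0.18 to 0.37 in size. Among these 8, the calls of Sdhaf1, Alkbh6 and U2af1l4 were not held, and the rest were. Yif1b was the farthest, 35 measured genes from Nfkbid.

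The strain contrast could also be measured in the 8 gp33 mice, whose levels do not enter the control-peptide difference. They do share the model's estimate of the spread, and the 7 control-peptide arrays on their own gave 571 higher and 830 lower genes. With gp33, 5386 genes (27.0%) differed between the strains, 2032 higher (10.2%) and 3354 lower (16.8%) in NOD.LCMV. Of the 1105 genes lower with the control peptide, 838 (75.8%) were called lower with gp33 too and 57 were called higher. Of the 952 higher genes, 399 (41.9%) were called higher with gp33 and 38 lower. The shared calls make up 60.1% of the control-peptide calls and 23% of the gp33 calls. Sample titles have a different form in each strain, with either peptide. A processing difference that followed strain could recur with gp33, and it cannot be told apart from strain there either. Without NOD.Ln82-LCMV control replicate 1 the genes called in both fits gave 76.3% for lower and 42.4% for higher genes. Kcnma1 (-5.50), Uprt (-1.81), Ly96 (-1.77), Ly6d (-1.80), Tbrg3 (1.01) and Bach2 (1.87) kept their direction with gp33, whereas the differences of Tdrp (-0.02, adjusted p = 0.977 in limma) and Zfp831 (0.26, adjusted p = 0.315) did not pass the test there.

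**Figure D5:**
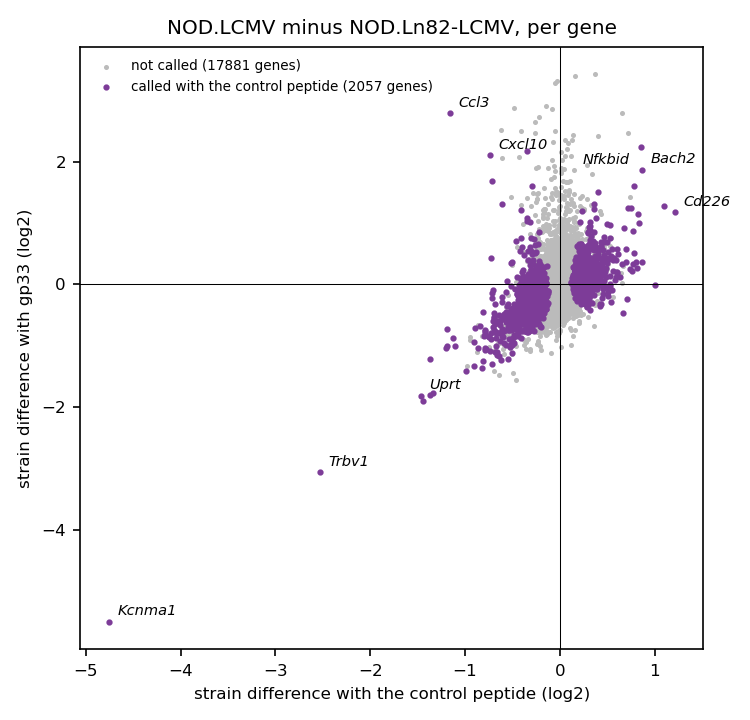
Strain difference of each of 19938 genes with gp33 (vertical axis) against that with the control peptide (horizontal axis), both NOD.LCMV minus NOD.Ln82-LCMV in log2; the 2 axes use different mice, and the genes called with the control peptide are coloured. Lower genes such as Uprt and Trbv1 lie low on both axes, and Ccl3 and Cxcl10 lie left with the control peptide and high with gp33.

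For 1740 genes (8.73%) the strain difference itself differed between the peptides, among them 389 of the 2057 called with the control peptide. Several genes called lower in NOD.LCMV with the control peptide were higher there with gp33, but their control-peptide calls were not held. The call was lost in 4 leave-one-out fits for Cd274, 6 for Timp1, 6 for Cxcl10 and 10 for Lilr4b. It was lost in 5 for Mfsd2a, 1 for Rcl1 and 5 for Taf4b. The differences of all these genes, Cd274, Timp1, Cxcl10 and Lilr4b included, stayed negative in every such fit. The inhibitory ligand gene Cd274 was at 10.25, 10.38, 10.39 and 10.38 against 10.24, 9.98 and 9.90 with the control peptide, a difference of -0.31 ± 0.0789, and differed by 1.01 with gp33 (test of the difference, adjusted p = 1.56e-06 in limma). The protease inhibitor gene Timp1 went from -0.30 to 1.60 (adjusted p = 8.76e-08), and the chemokine gene Cxcl10 from -0.74 to 2.10 (adjusted p = 9.06e-06). Lilr4b, Mfsd2a, Rcl1 and Taf4b showed the same pattern, from -0.34, -0.41, -0.30 and -0.22 to 2.17, 1.21, 0.76 and 0.86. Zfp36, which destabilizes cytokine messages, was higher with both, at 0.21 and 1.02. Itgae, Bcl11b, S1pr1 and Eng moved the other way, from 0.71, 0.48, 0.29 and 0.51 with the control peptide to -0.25, -0.04, -0.36 and -0.19 with gp33, with adjusted p-values of 0.0191, 0.0229, 0.000332 and 0.01 in the limma test of the difference. Among these 4, only S1pr1 was called lower with gp33.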

How the data were processed

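Whole-thymus RNA of 15 mice was hybridised to 1 array each. The values are the authors' deposited log2 signals of 35556 probe sets, summarised by RMA in Affymetrix Expression Console 1.1 per the submitters' processing notes; the build behind the probe annotation is not given in the sources used here. The platform annotation gives 1 symbol to 21789 probe sets, several to 1621 and none to 12146, which left 19938 genes. Spans and positions came from RefSeq genes of GRCm38.p6 (19856 genes matched).

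One linear model with 4 group means was fitted to the 15 arrays with limma 3.58.1 in R 4.3.3, so the groups share an estimate of the spread (11 residual and 14.9 total degrees of freedom). Tests were two-sided. A gene was called where its p, adjusted by Benjamini-Hochberg across the 19938 genes, was under 0.05, whatever its fold. A positive difference means higher in NOD.LCMV. The model was tested on simulated data.

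The comparison, the 33 gene lists and the named genes were chosen with earlier results of these data known. Named are Nfkbid, the 12 largest called differences in each direction (predicted, small RNA, olfactory and antigen receptor genes left out), up to 4 called members of each list with the smallest p (where fewer than 2 were called, members up to 2, by value only), up to 5 called genes on each side of Nfkbid, up to 8 called genes with the clearest difference between peptides, and defining markers of a list that moves with 1 array. MicroRNA genes, gene classes, Trbv1, Nr4a1 and other members outside this rule were chosen after their values were seen. The labels call the mice biological replicates.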

Additional observations from a re-analysis of the deposited data

Results flagged for a closer look

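In the 4 NOD.Ln82-LCMV control mice, 1 array lay far from the other 3 in 16 of 117 named genes, of which 14 concern replicate 1. Chance gives about 1 in 20 for genes not chosen on these arrays, but the named genes were partly chosen for large differences or for moving with 1 array, so the count is a description. Its levels were 9.26 for Adam11, 8.35 for Amigo2, 9.58 for Bach2, 9.88 for Bid, 10.1 for Cd226, 10.25 for Cd274, 11.25 for Foxp1, 11.32 for Fyn, 9.4 for Itgae, 9.09 for Pced1b, 10.03 for Runx3, 10.34 for Tdrp, 7.15 for Timp1 and 8.3 for Tnfrsf9. Replicate 4 stood apart in Nlrc5 at 10.87, and replicate 3 in Psenen at 12.85.

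In 36 of the 117 named genes the strain difference with gp33 differed from that with the control peptide by the limma test of the difference, with adjusted p-values up to 0.0466. The change, gp33 less control peptide, was positive in 24: 3.94 for Ccl3, 2.84 for Cxcl10, 2.51 for Lilr4b, 2.4 for Tnfrsf9, 1.92 for Rgs1, 1.9 for Timp1, 1.71 for Nfkbid, 1.61 for Mfsd2a, 1.38 for Ccl22, 1.32 for Cd274, 1.17 for Tnfrsf18, 1.15 for Mt2, 1.11 for Egr2, 1.07 for Taf4b, 1.06 for Rcl1, 1 for Bach2, 0.81 for Zfp36, 0.66 for Gbp7, 0.63 for Nfkbib, 0.63 for Gbp4, 0.58 for Mt1, 0.45 for Il33, 0.43 for Sdhaf1 and 0.41 for Dnajb1. It was negative in 12: -0.96 for Itgae, -0.70 for Eng, -0.65 for S1pr1, -0.54 for Pdgfrb, -0.52 for Bcl11b, -0.50 for Pced1b, -0.50 for Pecam1, -0.42 for Igflr1, -0.35 for Thy1, -0.33 for U2af1l4, -0.31 for H2-DMa and -0.28 for Runx1.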

How the results depend on the processing

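Tried were a second quantile normalization, centring, leaving out dim genes, the mean of a gene's probe sets or each probe set alone, a variance trend, array weights, the compared groups only, a fold limit, a replicate block, leaving out each array and, added after the data were seen, taking out the trend on gene span. No named gene that was called with all arrays changed sign, and the uncalled ones were not checked for this. Array weights gave 2304 higher and 2046 lower genes with the control peptide and 1903 lower between peptides; the 7 compared arrays alone gave 571 higher; a limit of 1.5-fold gave 31 higher and 79 lower, 405 and 298 with gp33, and 382 and 74 between peptides. Genes lower between peptides were 358 after centring and 473 without the span trend. Leaving out 1 array gave 463 to 1350 higher and 586 to 1371 lower genes, and 472 to 1016 lower between peptides. A second normalization moved the share of higher calls from 46.3% to 54.1%. With the replicate block, 2068 genes were called. Deviations of same-numbered NOD.Ln82-LCMV mice correlated at 0.12, 0.0085, -0.05 and -0.23. With so few mice, these values cannot decide whether the numbers pair them. The causes of these shifts were not tested.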

Other observations

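Small nucleolar RNA genes, which guide the chemical modification of other RNAs, were called in both directions: 7 of 55 were higher in NOD.LCMV and 10 lower, beside 4.77% and 5.54% of all genes. Snora23 fell by 1.37 ± 0.123 on the log2 scale (adjusted p = 3.7e-05 in limma), Snord118 by 1.19 ± 0.248 (adjusted p = 0.00671), and Snord37 rose by 1.1 ± 0.113 (adjusted p = 7.44e-05). Among 347 zinc finger protein genes, a large family of DNA-binding regulators, 19 were higher, a share near the 4.77% of all genes, and 8 lower. Of 1196 olfactory and vomeronasal receptor genes, of which 1151 were dim, 7 were higher and 0 lower in limma, with 46 and 5 at an unadjusted p under 0.05. These classes were chosen after their values were seen.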
